A study of Drosophila melanogaster with 3 samples.

Results

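Eukaryotic translation initiation factors (eIFs) are the proteins that bring the small ribosomal subunit, the initiator tRNA and the mRNA together at the start codon. In Drosophila melanogaster, 44 of the 13945 protein-coding genes on the 6 assembled chromosome arms have a symbol that starts with eIF, and these 44 genes were followed through peak lists of the transcription factor Sox15. They were chosen by symbol alone, with no measured value in the rule, although earlier results of these data were known by then. Chromatin immunoprecipitation followed by sequencing (ChIP-seq) had been carried out on whole prepupae, the short stage between larva and pupa. The animals came from a transgenic line that stably expressed Sox15 with a green fluorescent protein tag at its C terminus, and the description names an anti-GFP antibody, although another label gives Sox15 as the antibody target. Males and females were pooled, their age is given as unknown, and chromatin was sonicated to 200 to 800 bp. There was 1 group of 3 biological replicates, so no treated or mutant animals were compared, and a control library was not analysed here.

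Initiation proceeds through a series of handovers. eIF2 carries the initiator tRNA and is recharged by its exchange factor eIF2B, eIF3 holds the pre-initiation complex on the small subunit, and the eIF4 factors recognise and unwind the capped end of the mRNA. eIF1 and eIF1A keep scanning accurate, eIF5 and eIF5B drive GTP hydrolysis and subunit joining, and eIF6 keeps free large subunits from joining too early. Sox15 belongs to the Sox family, whose proteins bind DNA through a high-mobility-group domain.

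Sox15 peaks lay at the promoters of 9 eIF genes: eIF1, eIF2Bbeta, eIF3a, eIF3c, eIF3h, eIF3m, eIF4EHP, eIF5B and eIF6. These genes are called occupied here, which means that a summit (the highest point of a peak) of the irreproducible discovery rate (IDR) set lay within 1000 bp of one of their annotated start sites. They were 20.5% of the 44 eIF genes, against 19.3% of all protein-coding genes, so the share was close to the background. With only the stronger 2277 peaks of the set, 8 eIF genes remained (18.2%, without eIF3a), against 11.4% of all genes; this gap was not tested. The peaks themselves were mostly strong. Their median rank was 881 of the 4555 peaks of the IDR set, against 1846 for the strongest peaks of all 2694 occupied genes, and the median signal was 380.0 against 236.3. The strongest of them, at eIF2Bbeta, eIF6 and eIF4EHP, lay nearer to the start of another gene than to that of the eIF gene. At eIF6 that other gene is non-coding. The signal is the authors' value for each peak. Its scale is not stated, and it was read only within a list.

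The IDR set was the strongest 4555 of the 14164 peaks called on the pooled replicates, with a lowest signal of 116.6. The relaxed lists of replicates 1, 2 and 3 held 19304, 19033 and 16102 peaks. The read depth of the libraries is unknown, and the precision rests on these 3 libraries and their peaks. The samples were whole animals. A weak peak from strong binding in few cells and a weak peak from weak binding in many cells cannot be told apart.

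The DNA around the summit is shown for 4 occupied genes, 100 bp to either side in dm6 (RefSeq Release 6), written 5′ to 3′ on the strand of the eIF gene. eIF2Bbeta and eIF4EHP are shown for the strength of their peaks, and eIF1 and eIF3a because both held the DNA replication-related element TATCGATA. Capitals mark matches on either strand to any of 8 patterns: AACAAT, the core bound by Sox proteins; the element TATCGATA and its core, ATCGAT, which lies inside it; the TATA box TATAAA; the E-box of Myc, CACGTG; the promoter pattern Motif 1, GGTCACACT; the GAGA factor pattern GAGAG; and the GATA factor pattern AGATAA.
eIF2Bbeta, chrX:2703793-2703993, plus strand: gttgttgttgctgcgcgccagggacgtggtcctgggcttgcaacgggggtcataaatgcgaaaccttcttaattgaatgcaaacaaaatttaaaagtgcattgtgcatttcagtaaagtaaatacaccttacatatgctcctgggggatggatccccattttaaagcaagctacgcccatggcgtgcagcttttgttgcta
eIF4EHP, chr3R:24109104-24109304, minus strand: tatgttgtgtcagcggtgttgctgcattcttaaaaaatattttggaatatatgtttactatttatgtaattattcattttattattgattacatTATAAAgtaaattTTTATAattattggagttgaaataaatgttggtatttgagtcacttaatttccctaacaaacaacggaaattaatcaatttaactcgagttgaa
eIF3a, chr3R:4433904-4434104, minus strand: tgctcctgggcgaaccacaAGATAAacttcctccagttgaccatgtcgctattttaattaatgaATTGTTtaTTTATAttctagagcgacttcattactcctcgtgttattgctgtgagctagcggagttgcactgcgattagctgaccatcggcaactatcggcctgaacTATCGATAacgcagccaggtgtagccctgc
eIF1, chr3L:3222915-3223115, plus strand: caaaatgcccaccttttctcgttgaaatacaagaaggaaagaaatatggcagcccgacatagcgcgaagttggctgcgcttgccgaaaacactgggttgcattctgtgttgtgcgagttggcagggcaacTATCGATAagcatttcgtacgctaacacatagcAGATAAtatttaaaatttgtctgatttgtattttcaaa
The eIF2Bbeta window held none of the 8 patterns, and that of eIF4EHP held TATAAA on both strands. The window of eIF3a, whose peak was the weakest of the 9, held the Sox core, the TATA box, the element TATCGATA and the GATA pattern.

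Of the eIF2B subunits, which together form the guanine nucleotide exchange factor of eIF2, eIF2Bbeta (FBgn0024996, X, 2704571 to 2706217, plus strand) had the strongest peak of any eIF gene. Its peak (X, 2703709 to 2704065) had a signal of 2974 and ranked 4 in the IDR set. It ranked 4, 3 and 3 in replicates 1, 2 and 3, with signals of 1347, 849.7 and 800.7. All 3 replicates thus placed it among their strongest peaks. The summit was 678 bp upstream of the eIF2Bbeta start site and 41 bp from that of Ugalt, which encodes a UDP-galactose transporter and is transcribed the other way. Separate, weak summits close to the eIF2Bbeta start were called in replicate 1 (signal 28.1, rank 10109, 93 bp upstream) and replicate 2 (signal 26.4, rank 5547, 88 bp upstream). The catalytic subunit eIF2Bepsilon and its partner eIF2Bgamma had no summit within 1000 bp of a start site in any list, nor had eIF2Balpha. eIF2Bdelta had a pooled summit below the IDR threshold.

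eIF6 (FBgn0034915, 2R, 23849246 to 23850301, minus strand), which binds the large ribosomal subunit, had a peak (2R, 23850259 to 23850560) with a signal of 2018 and rank 19. It ranked 23, 14 and 19 in replicates 1, 2 and 3, with signals of 892.7, 623.8 and 512.4. The summit was 109 bp upstream of the start site. It lay in an exon of the non-coding RNA asRNA:CR45928 on the opposite strand, 80 bp downstream of its start. It also lay in an intron of ytr, 663 bp downstream of the start of that gene, which is on the same strand as eIF6.

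Among the 13 eIF4 genes, eIF4EHP alone was occupied (7.69%, against 19.3% of all protein-coding genes, a difference that was not tested). It encodes a cap-binding protein that does not recruit eIF4G and represses the translation of mRNAs such as caudal in the embryo. The eIF4EHP gene (FBgn0053100, 3R, 24063077 to 24108960, minus strand) had a promoter peak (3R, 24109023 to 24109382) with a signal of 1131 and rank 77, 244 bp upstream of its start site and 132 bp from that of CG18428 on the opposite strand. The signals were 584.5, 280.1 and 259.9 in replicates 1, 2 and 3, at ranks 69, 112 and 88. The peak was high in every replicate, but it was 166 and 155 bp wide in replicates 2 and 3, against 360 bp in the pooled list, and so missed the rule that a replicate peak cover at least 50% of the pooled peak. The helicase eIF4A, the scaffold eIF4G1 and the helicase cofactor eIF4H1 had pooled summits below the IDR threshold. The main cap-binding protein gene eIF4E1 and the cofactor gene eIF4B had a summit within 1000 bp of a start site in 1 relaxed replicate list each. eIF4E3, eIF4E4, eIF4E5, eIF4E6, eIF4E7 and eIF4H2 had none within 1000 bp of a start site.

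eIF5B, the GTPase of subunit joining (FBgn0026259, 3L, 3428658 to 3460977, minus strand), had a peak (3L, 3460548 to 3460943) with a signal of 479.5 and rank 593. Its signals in replicates 1, 2 and 3 were 224.5, 117.7 and 128.4, at ranks 648, 719 and 440. The summit was 143 bp upstream of the nearer of its start sites and inside the 5′ UTR of the longer transcript. CG46463 and armi, a piRNA pathway helicase, start 569 and 571 bp away on the opposite strand. eIF5, the GTPase-activating protein of eIF2, had only a weak pooled summit. The gene of eIF5A carries the symbol eEF5 in this annotation and was counted with the elongation factors.

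Of the 16 genes of the scaffold eIF3, 4 (25%) were occupied, against 19.3% of all genes. eIF3c, a core subunit (FBgn0034258, 2R, 17665678 to 17669275, plus strand), had a peak (2R, 17665478 to 17665873) with its summit 2 bp from the start site, a signal of 380.0 and rank 881. Its signals were 181.5, 108.0 and 96.2 in replicates 1, 2 and 3, at ranks 943, 841 and 777, so the replicates placed it alike. The neighbour CCHa1-R, a neuropeptide receptor gene, starts 608 bp away on the opposite strand. eIF3m (FBgn0033902, 2R, 14163066 to 14164825, minus strand) had a signal of 212.3 and rank 2176, with the summit 88 bp upstream in a peak at 2R, 14164715 to 14165110. Its replicate signals were 107.3, 59.0 and 46.3, at ranks 2100, 2138 and 2358. CG8323 starts 138 bp from that summit on the opposite strand.

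The other eIF3 genes with IDR peaks were less even over the replicates. eIF3h (FBgn0022023, 2L, 5051193 to 5053094, minus strand) had a narrow peak of 130 bp (2L, 5052375 to 5052504), with a signal of 309.0 and rank 1237. Its summit lay in an intron, 321 bp downstream of the nearest start site, and senju starts 384 bp away on the opposite strand. The other 8 of the 9 summits lay upstream of their start sites (88.9%, against 84.7% of all occupied genes). The eIF3h signals were 167.0, 90.4 and 40.2 in replicates 1, 2 and 3, at ranks 1076, 1114 and 2861. Replicate 3 was the low one. eIF3a (FBgn0037249, 3R, 4429798 to 4433895, minus strand), the largest scaffold subunit, had the weakest of the 9 peaks (3R, 4433806 to 4434201), with a signal of 125.2, rank 4225 and a summit 109 bp upstream. Its signals were 79.7, 25.1 and 19.8 in replicates 1, 2 and 3, at ranks 3172, 5847 and 7691. Only replicate 1 had it among its strongest 4555 peaks. The summit lay 39 bp inside the 5′ UTR of CG1074, on the opposite strand.

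Of the scanning factors, eIF1 was occupied. eIF1 (FBgn0035423, 3L, 3223341 to 3224650, plus strand) had a peak (3L, 3222817 to 3223212) with a signal of 277.8 and rank 1448, 326 bp upstream of its start site. The signals were 132.0, 63.5 and 73.7 in replicates 1, 2 and 3, at ranks 1557, 1914 and 1154. The summit was closer, at 55 bp, to the start site of RpL28, a ribosomal protein gene on the opposite strand. eIF1A had a weaker pooled summit, present in all 3 relaxed lists.

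None of the 5 eIF2 and eIF2-like genes was occupied, against 19.3% of all protein-coding genes, a difference that was not tested. The non-canonical factors eIF2A and eIF2D and the subunit eIF2beta had pooled summits below the IDR threshold. eIF2gamma, the GTP-binding subunit, had a summit within 1000 bp of a start site in replicate 1 alone (signal 34.9, rank 7885, 21 bp upstream). eIF2alpha, the subunit whose phosphorylation slows initiation, had no summit in any list within 1000 bp.

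**Figure D1:**
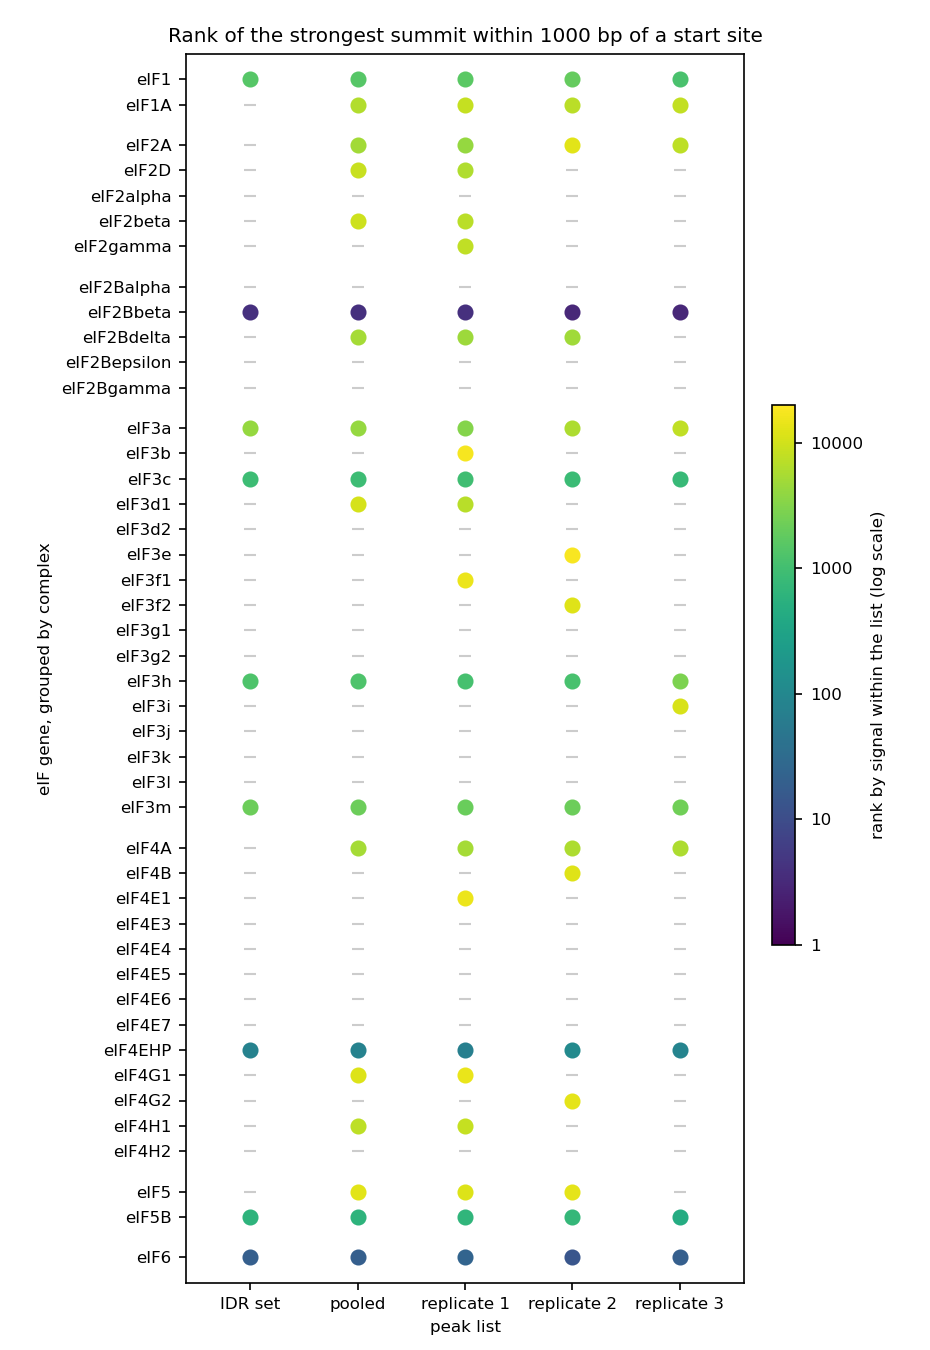
Rank by signal (colour, log scale, dark is strong) of the strongest summit within 1000 bp of a start site for each of the 44 eIF genes (rows, grouped by complex) in the IDR set, the pooled list and the 3 replicate lists (columns); a dash marks no summit. eIF2Bbeta, eIF6 and eIF4EHP are dark in every list, 10 genes have pooled summits outside the IDR set, and 16 rows hold dashes only.

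The IDR threshold ran through a continuous range of weak peaks. Just inside it was eIF3a at rank 4225 of the pooled list, and just outside were eIF2A (signal 106.9, rank 4974, 69 bp upstream), eIF4A (102.6, rank 5197, 501 bp upstream) and eIF2Bdelta (102.2, rank 5221, 742 bp upstream). These were followed by eIF1A (85.2), eIF4H1 (71.7), eIF2D (62.8), eIF2beta (59.7), eIF3d1 (54.9), eIF4G1 (50.4) and eIF5 (48.6), with ranks down to 12773 of 14164. Replicates differed at these genes. Within 1000 bp of a start site, eIF2A, eIF4A and eIF1A had summits in all 3 relaxed lists, eIF2Bdelta and eIF5 in replicates 1 and 2, and the other 5 in replicate 1 alone. eIF2A ranked 4098 in replicate 1 but 12686 and 7561 in replicates 2 and 3.

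Counting these weaker summits did not move the eIF genes far from other genes. Pooled summits lay within 1000 bp of a start site in 19 eIF genes (43.2%), against 37.4% of all protein-coding genes. With summits in gene bodies added, the pooled list reached 20 eIF genes (45.5%), against 44.0% of all, by a summit of signal 50.3 in a coding exon of eIF4E7. In the IDR set, gene bodies added no gene, so the count stayed at 9 (20.5%), against 22.9% of all. A summit among the strongest 4555 peaks of each of the 3 replicates was present for 8 eIF genes (18.2%), the occupied genes without eIF3a, against 15.3% of all. In the full relaxed lists, 12 eIF genes (27.3%) had a summit in all 3 replicates, against 27.5% of all genes. At least 1 replicate had a summit for 28 eIF genes (63.6%), against 57.8% of all.

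Relaxed lists differed by replicate. Replicate 1 had summits within 1000 bp of a start site at 23 eIF genes (52.3%), against 45.5% of all genes, replicate 2 at 18 (40.9% against 42.1%), and replicate 3 at 13 (29.5% against 36.5%). Among the strongest 4555 peaks, the counts were 10, 8 and 8 of the 44 eIF genes in replicates 1, 2 and 3. Of all genes, 19.3%, 19.1% and 18.6% had such a summit. Replicate 1 added eIF2A and eIF3a there, and the same 8 genes stood in all 3. The 9 eIF genes with a relaxed summit but no pooled one within that distance had it in 1 replicate each, at ranks between 7885 (eIF2gamma) and 18420 (eIF3e). They were eIF2gamma, eIF3b, eIF3e, eIF3f1, eIF3f2, eIF3i, eIF4B, eIF4E1 and eIF4G2.

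The remaining 16 eIF genes had no summit within 1000 bp of a start site in any of the 5 lists. They included the eIF3 genes eIF3d2, eIF3g1, eIF3g2, eIF3j, eIF3k and eIF3l, the eIF2B genes named above, eIF2alpha and the 6 eIF4 genes. The nearest IDR summit of the 35 unoccupied genes was between 1284 bp (eIF2Bgamma) and 591063 bp (eIF4B) from a start site, with a median of 11949 bp. For 19 of them it was more than 10000 bp away. The same distances were not taken over all unoccupied genes, so whether these are unusual cannot be said.

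All 9 occupied eIF genes had another protein-coding gene that starts close to the Sox15 summit. Another protein-coding start lay within 1000 bp of the summit at 9 of 9 genes (100%), against 62.6% of all 2694 occupied genes. At 8 of the 9 (88.9%) such a start was on the opposite strand, against 58.9% of all, the exception being eIF6. For 5 (55.6%), the eIF start site was the nearest protein-coding one, against 69.1% of all. At eIF1, eIF2Bbeta, eIF3a and eIF4EHP the neighbour's start was the nearer. A ChIP summit between such starts cannot be assigned to either gene. When only the gene with the nearest start of any kind was counted, non-coding genes included, 4 eIF genes remained (eIF3c, eIF3h, eIF3m and eIF5B), while the share of all protein-coding genes was 13.4%.

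The spacing of genes around the eIF genes was compared after these values had been seen. Another protein-coding start within 1000 bp of an own start site was present at 9 of 9 occupied eIF genes and at 14 of the 35 others (40%). Over the genome the same held for 67.5% of occupied and 37.0% of unoccupied genes. Of the 23 eIF genes with such a close neighbour, 39.1% were occupied, against 30.4% of all genes with one. Of the 21 eIF genes without it, 0 were occupied, against 11.0% of all such genes. The closeness of starts and the gene identity cannot be told apart here, and no test of the difference was made. The median length of the occupied eIF genes was 1902 bp, against 3395 bp for all occupied genes, while unoccupied eIF genes had a median of 1969 bp. The 9 lengths ran from 1056 bp (eIF6) to 45884 bp (eIF4EHP), and the difference was not tested.

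**Figure D2:**
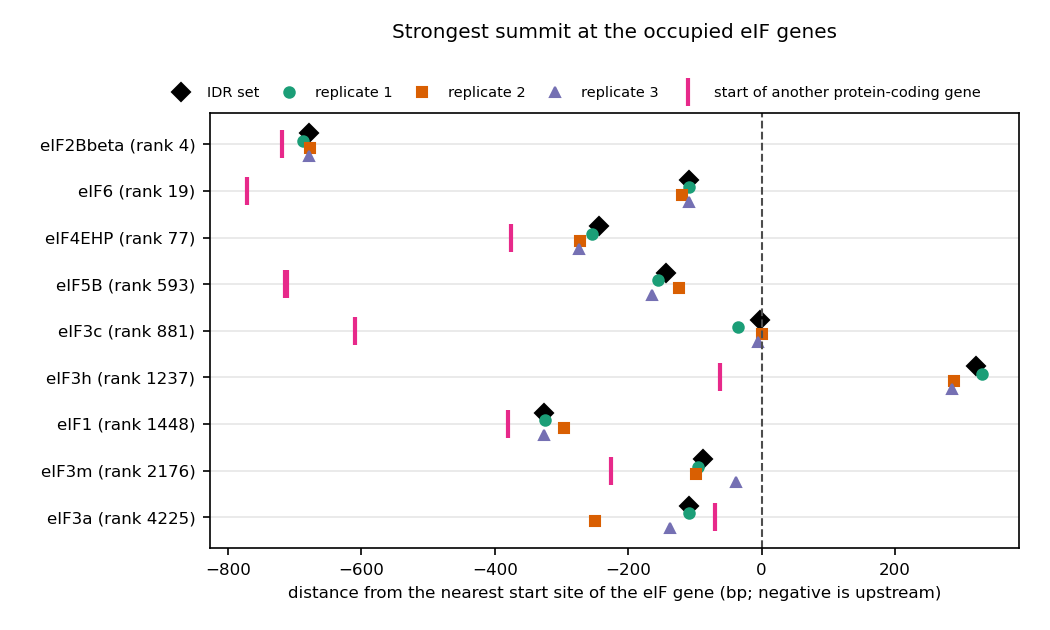
Position of the promoter summit in the IDR set and in each replicate relative to the nearest start site of the 9 occupied eIF genes (bp, negative is upstream), with the start sites of neighbouring protein-coding genes. The summits are upstream in 8 genes (88.9%, against 84.7% of all occupied genes) and 321 bp downstream in eIF3h. The summit of eIF2Bbeta lies 41 bp from the neighbouring start.

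Summits kept their place over the replicates. The distance from the start was 109, 120 and 109 bp at eIF6 in replicates 1, 2 and 3, and 325, 296 and 326 bp at eIF1. At eIF3a, whose peak was weak in replicates 2 and 3, it was 109, 250 and 138 bp. The median distance of the 9 summits was 143 bp, against 195.5 bp over all occupied genes. With the strongest summits of each replicate list in its place, it was 132, 198.5 and 219 bp in replicates 1, 2 and 3. The SD was 45.5 bp. These medians cover different eIF genes, 10 in replicate 1 and 8 in replicates 2 and 3. Replicate 1 added eIF2A, at 75 bp, and eIF3a, at 109 bp. The SD therefore mixes a change of genes with the spread between replicates, and the difference from all genes cannot be judged against it.

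The longest occupied genes, eIF4EHP and eIF5B, also held IDR summits deep in their introns. In eIF5B these lay 10008 and 27780 bp downstream of the start, with signals of 200.2 (rank 2357) and 237.6 (rank 1833). A further summit lay 9750 bp downstream of the start of eIF4EHP, with a signal of 160.4 and rank 3115. All 3 intron peaks were matched in each replicate. The nearest start of another gene was that of Syx1A for the eIF4EHP summit, 6553 bp away. For the eIF5B summits it was sty, 7888 bp from the summit at 27780 bp, and CG46463, 10720 bp from the summit at 10008 bp. The starts of Syx1A and sty were thus nearer to the summit than that of the eIF gene. Unlike the promoter summits, these had no second start site within 1000 bp. Such distances do not show whether another gene spans the position. The GC content within 100 bp was 28.9% and 29.9% at the eIF5B intron summits and 34.8% at that of eIF4EHP.

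**Figure D3:**
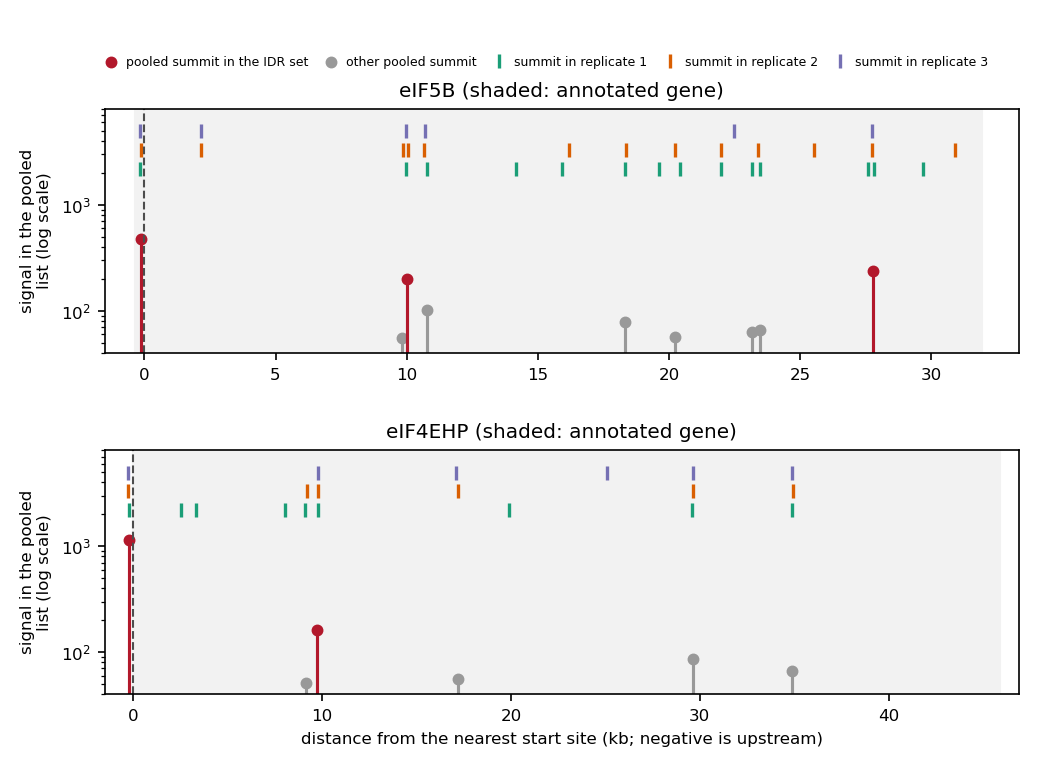
Summits along eIF5B and eIF4EHP by distance from the start site nearest to the promoter summit (kb, negative is upstream), with signal in the pooled list on a log scale (red, in the IDR set; grey, below it) and ticks for summits in each replicate list. The intron summits of the IDR set, at 10008 and 27780 bp in eIF5B and 9750 bp in eIF4EHP, have ticks of all 3 replicates.

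Sequence at 6 of the 9 promoter summits was richer in GC than at most Sox15 peaks. The median GC content within 100 bp was 41.3%, against 33.8% over all 4555 IDR summits (quartiles 30.3% and 37.8%). Values above the upper quartile were found at eIF2Bbeta (45.8%), eIF3a (45.8%), eIF6 (43.8%), eIF1 (41.8%), eIF3h (41.3%) and eIF5B (38.8%). eIF3c (33.8%) and eIF3m (33.3%) were near the median of all. eIF4EHP, at 23.9%, was lower than all but 2.63% of summits. Nearness to promoters did not go with higher GC over the whole set, since the 830 IDR summits with protein-coding starts on both strands had a median of 32.8%.

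**Figure D4:**
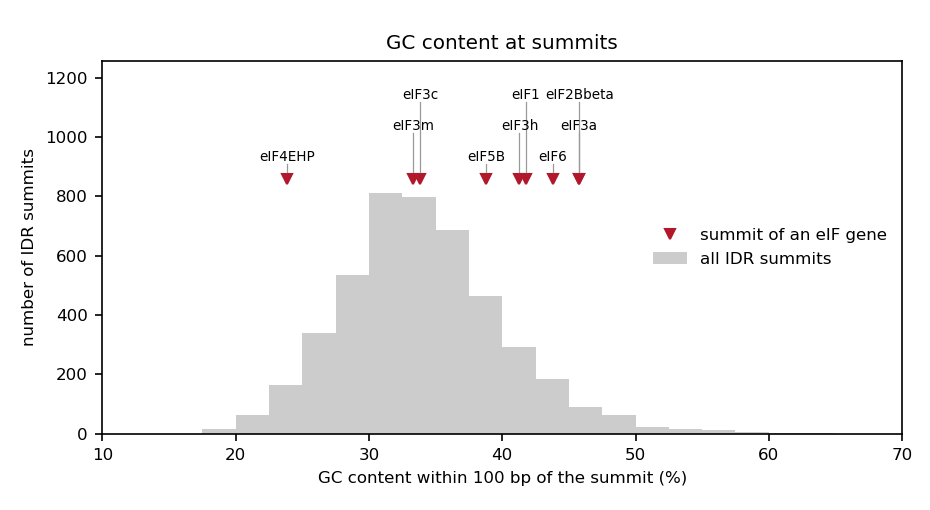
Number of IDR summits by GC content within 100 bp (percent, grey), with the 9 promoter summits of eIF genes marked by triangles at their own GC content. Of the 9, 6 lie above the upper quartile of 37.8% and eIF4EHP lies far below the median.

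The Sox core AACAAT was found at 2 of the 9 summits, eIF3a and eIF3m, against 24.6% of all IDR summits. TATAAA was found at 4 (eIF3a, eIF3m, eIF4EHP and eIF6), against 37.8% of all. TATCGATA, to which the promoter factor DREF binds, was found at 2 (eIF1 and eIF3a, both in capitals in the sequences above), against 1.95% of all. AGATAA was at the same pair (15.2% of all), GAGAG at eIF3c (19.0% of all), and CACGTG and GGTCACACT at 0 of 9 (1.71% and 0.944% of all). ATCGAT was present where the longer TATCGATA was, at 2, against 7.33% of all. With 9 summits each of these counts rests on few sites.

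The DREF pattern was more frequent in eIF promoters in general, with or without a Sox15 summit. In the window from 250 bases before to 50 after a start site, TATCGATA was present in 13 of the 44 eIF genes (29.5%), against 10.2% of all protein-coding genes. It was present in 4 of the 9 occupied eIF genes and in 9 of the 35 others (25.7%), against 14.1% of all occupied and 9.22% of all unoccupied genes. Genes with several start sites have several windows; among genes with 1 start site the shares were 27.6% of 29 eIF genes and 9.16% of all. The 13 genes were eIF1A, eIF2A, eIF2Bbeta, eIF2alpha, eIF2gamma, eIF3a, eIF3c, eIF3f1, eIF3l, eIF4A, eIF4B, eIF4E6 and eIF6. In eIF2gamma the pattern was found 3 times, and in eIF6 it began 11 bases before the start site. The eIF1 copy printed above lies outside this window. ATCGAT was in 23 (52.3%), against 26.3% of all. The Sox core was in 16 (36.4%), against 37.4%, and TATAAA in 20 (45.5%), against 51.2%. GAGAG was in 13 (29.5%), against 36.3%, AGATAA in 7 (15.9%), against 22.8%, GGTCACACT in 4 (9.09%), against 6.78%, and CACGTG in 4 (9.09%), against 5.3%. A match in a window is a description of its letters and says nothing of binding.

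Other genes of translation were taken from lists written by function, with earlier results of these data known. Of 11 genes for elongation, termination and recycling, 6 (54.5%) were occupied, against 19.3% of all genes. Their signals were modest: eEF1alpha1, which delivers aminoacyl-tRNA, had 271.4, eEF1gamma 265.1, the recycling factor pix 235.3 and the release factor eRF1 205.5. Of 18 cytoplasmic aminoacyl-tRNA synthetase genes, 8 (44.4%) were occupied, with SerRS (567.5), IleRS (508.7), AspRS (398.1) and GluProRS (379.3) at the top. Of 18 genes that control initiation, 7 (38.9%) were occupied. The kinase gene Lk6, whose product phosphorylates eIF4E, had a signal of 2206 with the summit 966 bp from a start site, and larp, an mRNA-binding protein, had 1977 at 329 bp. The poly(A)-binding protein gene pAbp (320.7) and its partner Paip2 (223.1) followed. In the pooled list the counts were 8 of 11, 12 of 18 and 11 of 18, against 37.4% of all genes. The eIF genes, at 20.5%, had a lower share than each of these lists; the differences were not tested.

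**Figure D5:**
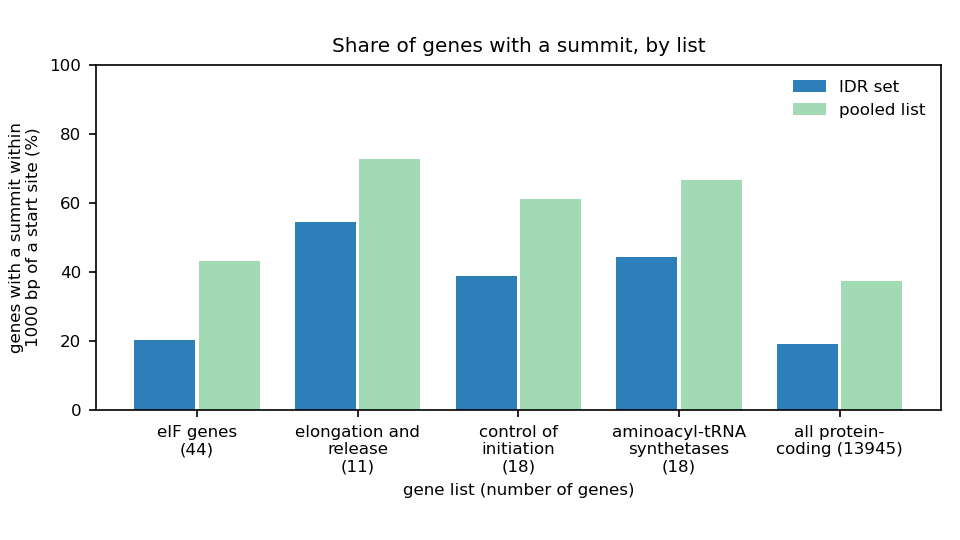
Share of genes (percent) with a summit within 1000 bp of a start site in the IDR set (blue) and in the pooled list (green), for the eIF genes, the 3 other lists of translation genes and all protein-coding genes, with the number of genes in brackets. The eIF bars, 20.5% and 43.2%, are near those of all genes, 19.3% and 37.4%, and below those of the other lists.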

How the data were processed

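Peaks were read from the deposited dm6 lists of 3 ChIP-seq replicates, their pooled list and the IDR set, whose inputs include a control per the file listing. The aligner, like the caller of the peaks, is not given in the sources used here. The authors' signal per peak has no stated scale, the deposited −log10 q-value was used as given, and the deposited p-value column holds a placeholder. The dm3 lists were not used.

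Genes and start sites came from Ensembl release 115 (BDGP6) and sequence from RefSeq Release 6, whose arm lengths fit the lists. Summits within 1000 bp of a start site or in a gene body were counted with Python 3.11.15, numpy 2.4.6 and pandas 2.3.3, for eIF genes and for all 13945 genes on 6 arms. Peaks were matched where a peak among the strongest 4555 of a replicate covered at least 50% of the IDR peak. The steps were checked on simulated data. No test was made, since there is 1 group. Every eIF gene was named, with the protein-coding genes that start within 1000 bp of the promoter summit of the occupied ones and up to 4 occupied genes of each other list. Members, lists and patterns were chosen with earlier results of these data known. In those lists 4 symbols had no match and were left out. Alternatives were other windows, stricter peaks, other start sites and leaving each replicate out of the matching and of the replicate counts.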

Additional observations from a re-analysis of the deposited data

How the results depend on the processing

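The count of 9 occupied eIF genes lay between 6 and 12 under 10 of the 11 other settings. It was 6, 8 and 12 for windows of 250, 500 and 2000 bp (13.6%, 18.2% and 27.3%). The shares of all genes in these windows were 12.5%, 16.6% and 24.2%. The count fell to 4 (9.09%, against 13.4% of all genes) when only the gene with the nearest start site of any kind was counted. The neighbour's start is then taken instead. The IDR set was not remade without a replicate. Instead, IDR peaks were required to match in both other replicates, which is a stricter rule. This gave 7 each time (15.9%), against 15.5%, 15.8% and 16.5% of all genes without replicates 1, 2 and 3. It lost eIF3a, matched in replicate 1 alone, and eIF4EHP, which was high in every replicate but too narrow in replicates 2 and 3. With gene bodies the count was 8 (18.2%), against 19.0%, 19.3% and 20.1%. The count by the strongest peaks of the remaining replicates was 8 each time (18.2%), against 16.2%, 16.4% and 17.0%. The median distance under the matching rule stayed at 143 bp. That median, 143 bp, became 193.5 bp with the stronger 2277 IDR peaks and 282.5 bp with a window of 2000 bp. No paired analysis was possible because the series has 1 group. Depth was not given, so a gene without a summit was not detectable as occupied here, which does not show that Sox15 is absent.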

Other observations

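eIF4G2, a paralogue of the scaffold eIF4G1, had an intron summit in all 3 replicates, about 1 kb from its start site, that the pooled list lacks. It lay 1072, 1076 and 1063 bp from the start in replicates 1, 2 and 3, with signals of 64.6 (rank 4070), 44.9 (rank 3000) and 22.1 (rank 6278). The same position (3R, 23817747 in replicate 1) lies within CG33111 and CG34355. Of 4355 summits among the strongest of replicate 1 that had a summit within 200 bp in both other replicates, this was the 1 (0.023%) with no pooled summit within 1000 bp. The comparison was made after the value had been seen, and the cause was not tested.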
